A study of Mus musculus with 9 samples.

Results

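The sarcomeric myosin heavy chains are the motor proteins of the thick filaments of striated muscle. The 8 genes described here, Myh4, Myh1, Myh2, Myh7, Myh8, Myh3, Myh6 and Myh7b, were taken by symbol from a gene table with 55416 identifiers, and each symbol matched a single identifier. All 8 were expressed highly enough to enter the tests across 13944 genes. RNA was sequenced from the left gastrocnemius of mice, a calf muscle with mostly fast fibers, in 9 libraries, 3 for each of 3 groups. SED mice were sedentary. AET mice were trained on a motorized treadmill for 60 minutes a day on 5 days a week over 8 weeks. AET_MET mice were trained in the same way and drank water with metformin, an oral glucose-lowering drug, at 2 mg/mL. No group with metformin and no training was analysed here. Strain, sex and age were not given in the sources used here. Per the design text each group had 8 to 9 mice, but no label states that the 3 libraries of a group are different animals, so a p-value reflects only how these libraries vary, which may be technical. The names of the libraries begin alike inside a group, and a batch along those names cannot be told apart from the treatment.

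Each muscle fiber is built mainly from a particular myosin heavy chain, and the isoform sets how fast the fiber shortens. In adult mouse limb muscle Myh4 encodes the heavy chain of the fastest, glycolytic type IIb fibers, Myh1 that of type IIx fibers, Myh2 that of the more oxidative type IIa fibers and Myh7 that of slow type I fibers. Myh3 and Myh8 encode the embryonic and perinatal chains, which developing and regenerating fibers use. Myh6 encodes the alpha chain of the heart, and Myh7b encodes a slow-tonic chain.

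Of the 8 genes, 5 lie in a single cluster on chromosome 11 of the GRCm38 build, on the plus strand, in the order Myh3 (67078300 to 67102291), Myh2 (67171027 to 67197517), Myh1 (67200052 to 67224575), Myh4 (67238029 to 67260446) and Myh8 (67277124 to 67308634). Myh6 (54941921 to 54966927) and Myh7 (54970684 to 54994626) neighbour each other on the minus strand of chromosome 14. Myh7b lies on the plus strand of chromosome 2 (155611212 to 155634307). The coding sequences are close to each other, which matters because the counting program had to divide reads among them. Myh1 and Myh2 were the same at 91.1% of aligned coding bases, with a shared run of 268 bases, Myh4 and Myh1 at 90.3%, and Myh7 and Myh6 at 91.8%. Myh7b stood farthest from the others. The coding stretch of 60 bases in which the 4 fast-type genes Myh4, Myh1, Myh2 and Myh8 were least alike is shown because reads from such a stretch tell them apart. It lies in an exon of each gene, exon 15 of Myh4 (11:67248694-67248753), exon 16 of Myh1 (11:67209101-67209160), exon 16 of Myh2 (11:67181283-67181342), exon 16 of Myh8 (11:67289775-67289834) and exon 17 of Myh7 on the minus strand (14:54987223-54987282). Capitals mark bases that differ from Myh4.
Myh4: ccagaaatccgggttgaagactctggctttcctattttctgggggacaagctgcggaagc
Myh1: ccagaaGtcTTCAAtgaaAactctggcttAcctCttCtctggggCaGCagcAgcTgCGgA
Myh2: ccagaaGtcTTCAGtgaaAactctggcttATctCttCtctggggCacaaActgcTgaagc
Myh8: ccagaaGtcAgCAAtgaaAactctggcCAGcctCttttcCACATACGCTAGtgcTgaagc
Myh7: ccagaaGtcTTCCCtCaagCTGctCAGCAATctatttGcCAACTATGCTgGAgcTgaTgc
Over these 60 bases Myh1 differed from Myh4 at 18, Myh2 at 14, Myh8 at 23 and Myh7 at 32. A second stretch shows the opposite case: its 60 bases were identical in Myh4 (exon 13, 11:67245718-67245777), Myh1, Myh2 and Myh8, so a read within it fits all 4. Myh7 (exon 15, minus strand, 14:54988811-54988870) differed there at 13 bases, again in capitals.
Myh4, Myh1, Myh2 and Myh8: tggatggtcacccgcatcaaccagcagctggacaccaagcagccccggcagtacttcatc
Myh7: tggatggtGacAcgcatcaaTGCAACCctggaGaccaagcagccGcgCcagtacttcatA
No read length was stated. Among all 100-base windows of the longest transcripts, some also occurred in another member. They were 3.85% of those of Myh4, 9.46% of Myh1, 9.17% of Myh2, 5.17% of Myh8, 11.2% of Myh7 and 11.4% of Myh6. None of those of Myh3 or Myh7b did. The levels of the near-identical members are therefore uncertain to the extent that reads were divided among them. Myh8 rested on 84.7 to 554 expected counts a library, beside 1101407 to 1876277 for Myh4. How much of the Myh8 count came from divided reads was not tested. An antisense RNA, Myhas, overlaps exons of Myh1 by 515 bases, and without a stated strand setting its reads and those of Myh1 cannot be told apart there. Myhas itself was listed at 261 to 531 expected counts a library, against 38350 to 190898 for Myh1.

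The promoters of the 4 fast-type genes of the cluster share a run of 14 bases, which is shown because these genes sit side by side and differ widely in level. All 8 members had entries in the promoter table (RefSeq, GRCm38.p6). The windows of 100 bases below are on the plus strand, at 11:67237611-67237710 for Myh4, 11:67199899-67199998 for Myh1, 11:67170859-67170958 for Myh2 and 11:67277024-67277123 for Myh8. Capitals mark the shared run, which begins 158, 160, 125 and 54 bases before the RefSeq start of Myh4, Myh1, Myh2 and Myh8.
Myh4: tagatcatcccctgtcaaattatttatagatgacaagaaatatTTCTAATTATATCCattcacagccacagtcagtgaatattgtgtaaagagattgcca
Myh1: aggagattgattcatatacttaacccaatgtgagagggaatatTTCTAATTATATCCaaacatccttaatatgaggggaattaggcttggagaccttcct
Myh2: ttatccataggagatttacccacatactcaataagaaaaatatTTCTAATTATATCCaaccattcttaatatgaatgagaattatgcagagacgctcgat
Myh8: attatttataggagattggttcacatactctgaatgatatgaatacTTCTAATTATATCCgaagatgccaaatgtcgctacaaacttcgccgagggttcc
The run TTCTAATTATATCC was searched on both strands in the 250 bases before each start and occurred in 4 of 32817 promoters (0.0122%), those of these 4 genes, from which it was chosen. A 10-base MEF2 site, searched in the same way, occurred in the promoters of Myh4, Myh1 and Myh8, against 2.92% of all promoters. TATAAAA occurred in those of Myh4, Myh1 and Myh3, against 4.98% of all. None of these matches overlapped the shared run or another of these motifs in the members' promoters, and they describe the letters only.

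Of the 8 members, Myh6, Myh7, Myh7b and Myh3 hold a miRNA gene on their own strand and outside their exons. The one in Myh3, Mir6923 (11:67099804-67099875), was not looked up further. The mature sequences of the other 3 (RefSeq, GRCm38.p6) are shown with the seed, bases 2 to 8, in capitals. mmu-miR-208a-3p lies in Myh6 (14:54949072-54949093), mmu-miR-208b-3p in Myh7 (14:54975710-54975731) and mmu-miR-499-5p in Myh7b (2:155622893-155622913).
mmu-miR-208a-3p: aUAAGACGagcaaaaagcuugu
mmu-miR-208b-3p: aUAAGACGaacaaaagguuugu
mmu-miR-499-5p: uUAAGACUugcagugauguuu
The pair in Myh6 and Myh7 share the seed UAAGACG, and the seed of the miRNA in Myh7b is UAAGACU. These 3 miRNA genes and Mir6923 were listed at 0 in all 9 libraries, which were made for mRNA.

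Total expected counts, which are estimated read numbers per gene, ran from 15434424 in AET_MET replicate 1 to 25355877 in AET replicate 3. The skeletal muscle fiber markers Ckm, Acta1, Ttn, Actn3, Tnnt3 and Myh4 together made 208133 to 254129 CPM (read counts scaled to a common library size, here with TMM factors for library composition). In SED replicate 1, the library with the highest sum, Ttn made 119854 and Myh4 80867 CPM of it. Not all of these genes are particular to fast fibers, and their sum does not tell gastrocnemius from other muscles. The heart markers Myl7 and Nkx2-5 were at 0 in all 9, and Nppa and Nppb reached at most 0.0617 CPM. Libraries that stood apart in a member are named beside it.

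Across all 9 libraries Myh4 made up most of the myosin heavy chain RNA, and no member was called by edgeR in any comparison. The 8 genes together took 8.05% ± 0.510 (SD, n = 3) of all counts in SED, 8.33% ± 0.469 in AET and 8.24% ± 0.388 in AET_MET. Divided by merged exon length, so that genes can be compared with each other, Myh4 held 92.3% ± 2.14 of the members' sum in SED, 90.7% ± 3.83 in AET and 94.3% ± 2.58 in AET_MET. Myh1 followed with 4.98% ± 1.56, 6.49% ± 3.22 and 4.12% ± 2.23, Myh2 with 2.41% ± 0.698, 2.62% ± 0.803 and 1.42% ± 0.462, and Myh7 with 0.246% ± 0.0555, 0.204% ± 0.202 and 0.107% ± 0.119. Myh8, Myh3, Myh6 and Myh7b together made 0.0109% to 0.0668% of a library's sum. In bulk muscle, fewer fibers of a type and less RNA per fiber cannot be told apart.

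**Figure D1:**
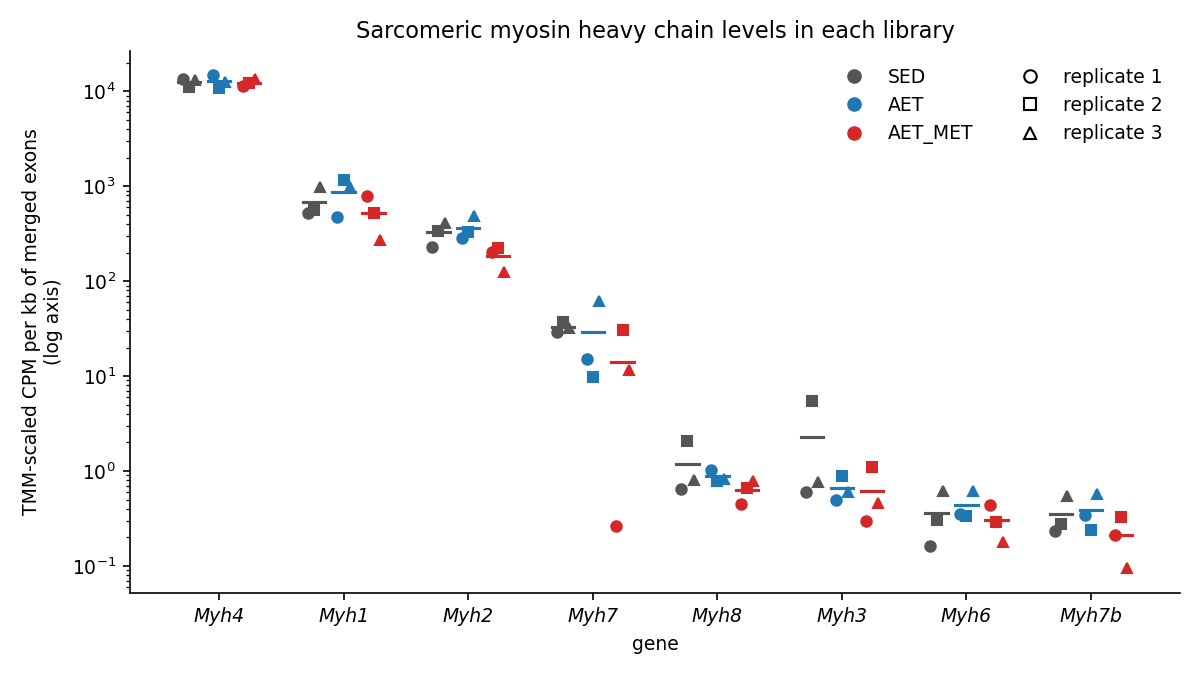
Level of each of the 8 genes in each library, as TMM-scaled CPM per kilobase of merged exons on a log axis; colours are the groups, symbols the replicate numbers and short lines the group means (n = 3). Myh4 is highest in every library, and Myh7 in AET_MET replicate 1 and Myh3 in SED replicate 2 stand far from the other points of their groups.

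The order of levels per kilobase was Myh4, Myh1, Myh2, Myh7 in 8 of 9 libraries. Myh4 exceeded Myh1 by 9.30 to 49.8 times and Myh1 exceeded Myh2 by 1.64 to 3.87 times, so these neighbours kept their order in every library. Myh2 exceeded Myh7 by 7.28 to 770 times. The lower 4 genes had no fixed order per merged exon length: Myh8 was above Myh3 in 6 of 9 libraries and Myh6 above Myh7b in 7 of 9. These differences within pairs were not tested. The order of Myh8 and Myh3 also moved with the length used, since the merged exons of Myh8 span 11772 bases and its longest transcript 6149. In AET replicate 2, for example, Myh8 held 0.00625% and Myh3 0.00706% per merged exon length, against 0.0119% and 0.00703% per longest transcript. Per longest transcript Myh8 was above Myh3 in every library except SED replicate 2.

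None of the 8 genes passed an adjusted p under 0.05 in AET against SED, AET_MET against SED or AET_MET against AET, by edgeR's quasi-likelihood test with Benjamini-Hochberg adjustment over all genes tested. Of those genes 12.3%, 4.59% and 3.43% passed in these 3 comparisons. At an unadjusted p under 0.05 the count of members was 0 in the first comparison and 1, Myh2, in each of the others, where 28.5%, 20.6% and 21.4% of all genes passed. DESeq2 called 0 of 7, 0 of 7 and 1 of 6 members that had an adjusted p, the call being Myh2 in AET_MET against AET, beside 12.4%, 6.78% and 8.45% of all genes with an adjusted p by DESeq2. It gave no adjusted p to Myh3 in any comparison or to Myh7b in AET_MET against AET. A test for any difference among the 3 groups called 0 of 8 members, against 13.2% of all genes, and its lowest adjusted p was 0.148, for Myh2. The groups did not overlap in CPM for 0, 1 and 1 members in the 3 comparisons, in the same order, against 32.7%, 26.8% and 27.9% of all genes. The pairs of comparisons share libraries and are not independent.

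**Figure D2:**
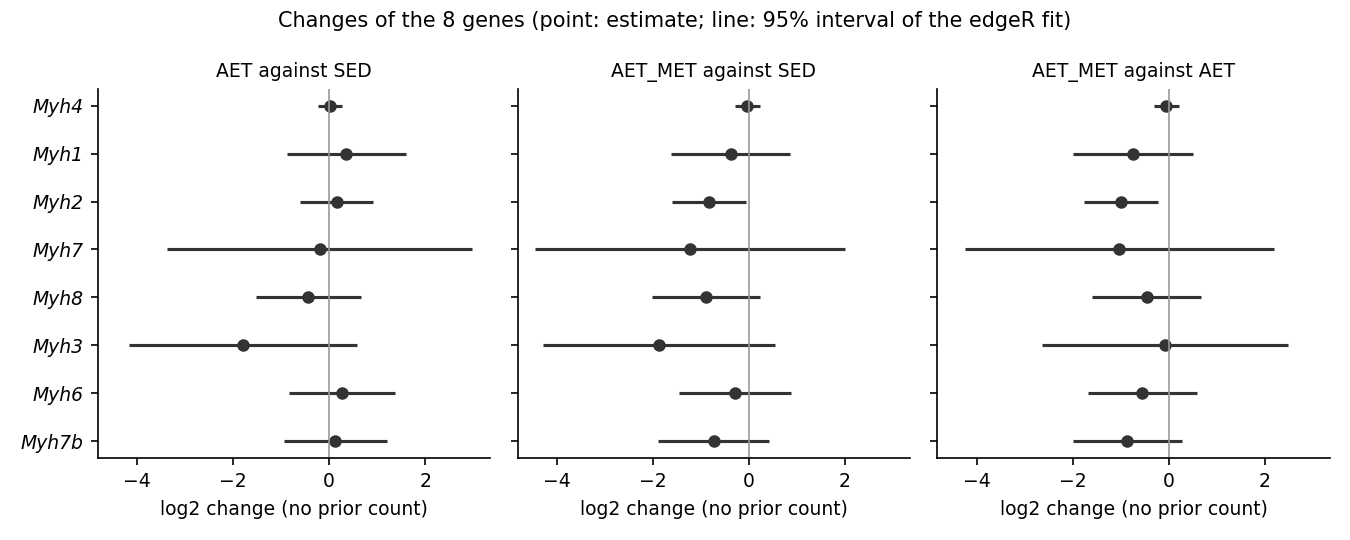
Log2 change of each gene in the 3 comparisons, with the 95% interval of the edgeR fit as a line and a vertical line at no change. The intervals of Myh4 are the narrowest, those of Myh7 and Myh3 span several log2 units, and only the intervals of Myh2 in the AET_MET comparisons lie wholly below 0.

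Myh4, the type IIb heavy chain, stood at 80867, 67305 and 79150 CPM in SED replicates 1 to 3. It stood at 88558, 65663 and 76099 CPM in AET and at 67924, 73568 and 81107 CPM in AET_MET. The groups overlapped throughout, and the highest and the lowest library of the 9 were both AET libraries. The log2 change was 0.02 ± 0.12 (SE; 95% interval -0.24 to 0.28; adjusted p = 0.936) in AET against SED, -0.03 ± 0.12 (-0.29 to 0.23; adjusted p = 0.919) in AET_MET against SED and -0.05 ± 0.12 (-0.31 to 0.21; adjusted p = 0.847) in AET_MET against AET. These intervals bound any change of this gene more tightly than those of the other members. Its share ran from 87.8% in AET replicate 2 to 97.1% in AET_MET replicate 3, with an exact permutation p of 0.371 over the 3 groups (smallest possible p 0.00357).

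Myh1, the type IIx heavy chain, varied more between libraries of the same group than its group means differed. It stood at 3293, 3554 and 6197 CPM in SED, at 3001, 7453 and 6289 CPM in AET and at 4993, 3306 and 1721 CPM in AET_MET. All pairs of groups overlapped, with the highest value in AET replicate 2 and the lowest in AET_MET replicate 3. Its log2 change was 0.36 ± 0.52 (95% interval -0.88 to 1.60; adjusted p = 0.697) in AET against SED, -0.38 ± 0.52 (-1.62 to 0.86; adjusted p = 0.737) in AET_MET against SED and -0.74 ± 0.52 (-1.99 to 0.51; adjusted p = 0.462) in AET_MET against AET. Its share ran from 1.95% to 9.44%, in the same 2 libraries, with an exact permutation p of 0.529 over the 3 groups.

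Myh2, the type IIa heavy chain, was the member with the lowest p in both comparisons of AET_MET. It stood at 1631, 2436 and 2933 CPM in SED and at 2010, 2330 and 3469 CPM in AET. In AET_MET it stood at 1449, 1599 and 882 CPM. All 3 AET_MET libraries lay below all SED and all AET libraries, although AET_MET replicate 2 and SED replicate 1 were nearly level. No overlap with the first group lower was seen for 13.4% of all genes against SED and for 13.2% against AET. The log2 change of Myh2 was -0.83 ± 0.33 (95% interval -1.60 to -0.06; adjusted p = 0.209) in AET_MET against SED and -0.99 ± 0.33 (-1.76 to -0.22; adjusted p = 0.142) in AET_MET against AET by edgeR. In AET against SED it was 0.16 ± 0.32 (-0.61 to 0.92; adjusted p = 0.791). DESeq2 gave an adjusted p of 0.0450 for AET_MET against AET, the only one of 18 alternatives that called it; over all 18 the adjusted p ran from 0.0450 to 0.321 and the log2 change from -1.17 to -0.73. In AET_MET against SED the log2 change stayed negative in all 18 alternatives, with adjusted p from 0.123 to 0.432.

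The share of Myh2 was 1.61%, 2.81% and 2.82% in SED, 1.82%, 2.63% and 3.43% in AET and 1.65%, 1.72% and 0.890% in AET_MET. On this scale the AET_MET libraries overlapped with SED, whose replicate 1 was lower than 2 of them, and lay below all of AET. The difference in mean share was -1.20 percentage points in AET_MET against AET (two-sided exact permutation p = 0.1, the smallest that 3 against 3 can give) and -0.991 in AET_MET against SED (exact permutation p = 0.3). Over the 3 groups the exact permutation p was 0.179. In all, 24 differences between pairs of groups and 8 tests over the 3 groups were computed for the shares, and only raw p-values are given for them. The markers of slow fibers, which are also oxidative, summed to 748 to 916 CPM in SED, 297 to 1128 in AET and 69.3 to 644 in AET_MET. Myh7 is 1 of these markers and itself made 253 to 323 CPM in SED, 84.1 to 534 in AET and 2.28 to 265 in AET_MET. The part of slow fibers in the values of Myh2 was not tested.

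**Figure D3:**
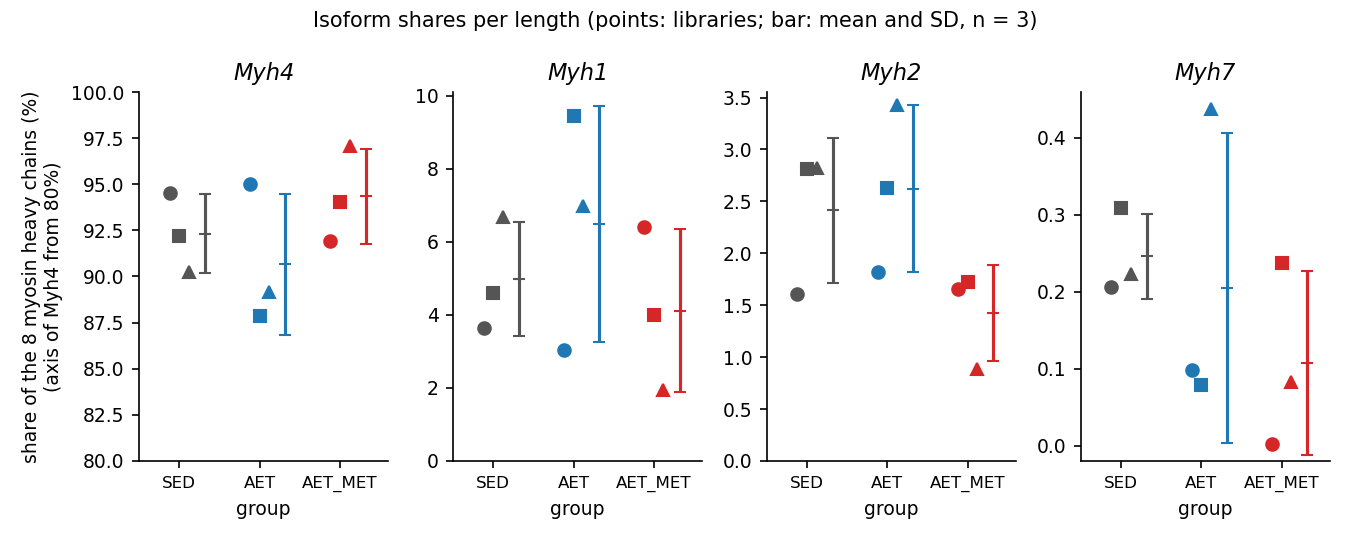
Share of Myh4, Myh1, Myh2 and Myh7 in the length-scaled sum of the 8 genes, in percent, for each library (points; symbols are the replicate numbers) with group mean and SD beside them (n = 3). The Myh4 axis starts at 80%; the AET_MET points of Myh2 lie at or below 1.72%, and Myh7 is close to 0 in AET_MET replicate 1.

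Myh7, the slow type I heavy chain, was the member whose libraries differed most. It stood at 253, 323 and 280 CPM in SED, at 131, 84.1 and 534 CPM in AET and at 2.28, 265 and 99.2 CPM in AET_MET. The SED libraries lay close together, AET replicate 3 was above all of them, and AET_MET replicate 1 held 36.8 expected counts, a level 116 times below that of AET_MET replicate 2. The SD of log2 CPM of Myh7 was larger than that of 99.9% of all genes tested in AET_MET and of 99.6% in AET, and than that of 56.6% in SED. Its log2 change was -0.19 ± 1.31 (95% interval -3.36 to 2.98; adjusted p = 0.942) in AET against SED, -1.22 ± 1.33 (-4.44 to 2.01; adjusted p = 0.669) in AET_MET against SED and -1.03 ± 1.32 (-4.24 to 2.19; adjusted p = 0.702) in AET_MET against AET. Without AET_MET replicate 1 the last 2 were -0.65 and -0.45 (adjusted p = 0.786 and 0.835). Without AET replicate 3 the change was -1.41 in AET against SED (adjusted p = 0.610) and turned to 0.20 in AET_MET against AET (adjusted p = 0.964). In AET_MET replicate 1 Myh7 ranked 7th of the 8 members per kilobase, below Myh6. Its share in SED was 0.246% per merged exon length and 0.338% per longest transcript, since its merged exons span 8616 bases and its longest transcript 6230.

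Several slow-fiber genes, though not all, went with Myh7 from library to library. The troponins Tnnt1, Tnni1 and Tnnc1, which set the calcium response of slow fibers, were also at their lowest in AET_MET replicate 1 and at their highest in AET replicate 3. Ranked among 8434 genes, the 3 whose log2 CPM was most like Myh7 over the 9 libraries were Tnnc1 (Pearson r = 0.992, Spearman rho = 0.983), Tnni1 (r = 0.980, rho = 0.950) and Tnnt1 (r = 0.978, rho = 0.967). Without the 2 libraries farthest from the median of Myh7 these r were 0.984, 0.976 and 0.974. These correlations describe 9 libraries that share groups and processing. Among the slow-fiber markers 0 of 7 passed in any comparison. The estimate of all 7 was below 0 in each, where the medians over all genes tested were 0.01, 0.00 and 0.00. Several of these markers varied together, so their signs are not independent. With 1 library left out at a time, the change in AET against SED ran from -0.75 to 0.005 for Myl2 and from -1.34 to -0.59 for Atp2a2. Tnnt1, Tnni1, Myl2, Myl3, Tnnc1 and Atp2a2 are the markers beside Myh7 itself. Other genes of the slow program did not follow it: in AET_MET replicate 1 Csrp3, a Z-disc LIM protein, was at its highest of the 9 libraries (57.0 CPM), Fhl1 stood at 538 CPM within a range of 336 to 630, Myl6b at 0.802 within 0.425 to 1.10, and Casq2 at 14.7, above the 12.1 of AET_MET replicate 3. Whether the amount of slow-fiber tissue in each piece of muscle differed was not tested.

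**Figure D4:**
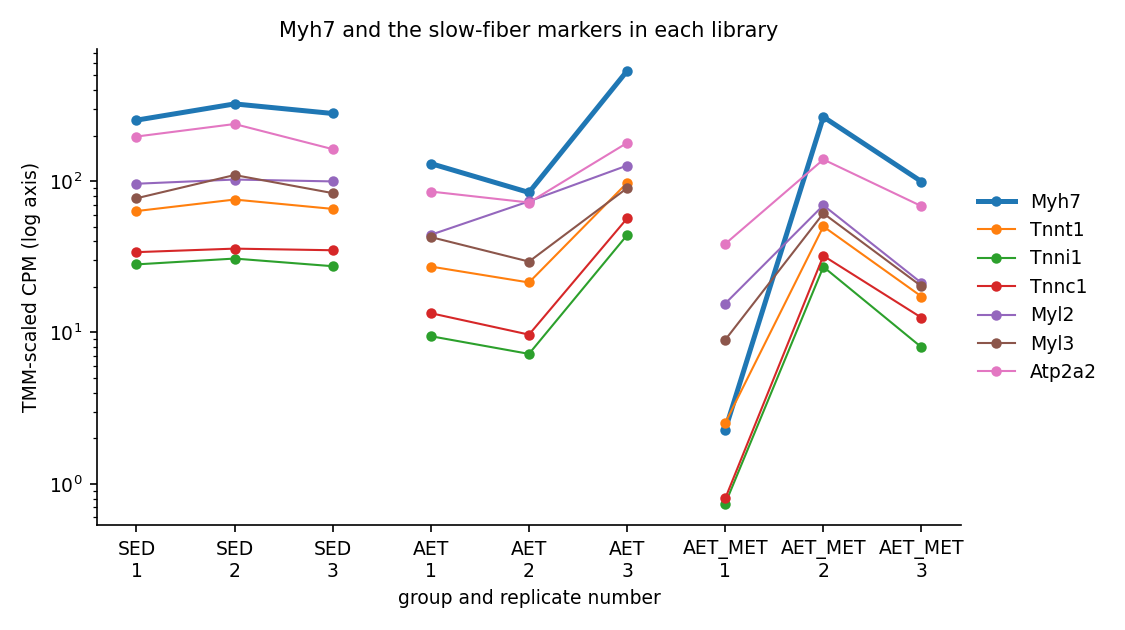
Level of Myh7 (thick line) and of 6 other slow-fiber markers in each library, as TMM-scaled CPM on a log axis; lines join the libraries of a group and replicates have no order. All 7 genes are lowest in AET_MET replicate 1, where Myh7 stands at 2.28 CPM.

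The developmental chains were low, and their highest values came from the same library. Myh3, the embryonic chain, stood at 3.69, 33.0 and 4.64 CPM in SED, at 3.01, 5.31 and 3.65 CPM in AET and at 1.79, 6.62 and 2.78 CPM in AET_MET. SED replicate 2 stood 8.96 times above the lowest SED library, and the groups overlapped. The log2 change of Myh3 was -1.79 ± 0.98 (95% interval -4.16 to 0.58; adjusted p = 0.287) in AET against SED and -1.87 ± 1.00 (-4.28 to 0.55; adjusted p = 0.354) in AET_MET against SED. Without SED replicate 2 these were -0.06 and -0.14 (adjusted p = 0.962 and 0.932). In AET_MET against AET the change was -0.08 ± 1.05 (adjusted p = 0.979).

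Myh8, the perinatal chain, stood at 7.66, 24.4 and 9.43 CPM in SED, at 12.1, 9.14 and 9.69 CPM in AET and at 5.24, 7.83 and 9.16 CPM in AET_MET. SED replicate 2 was again the highest, and the other 8 libraries lay within 5.24 to 12.1 CPM. Its log2 change was -0.43 ± 0.46 (adjusted p = 0.588) in AET against SED, -0.89 ± 0.47 (adjusted p = 0.344) in AET_MET against SED and -0.46 ± 0.47 (adjusted p = 0.623) in AET_MET against AET. Without SED replicate 2 the first was 0.27 (adjusted p = 0.488) and the second -0.19 (adjusted p = 0.715). As a share of the members' sum, Myh8 was lower in all 3 AET_MET libraries (at most 0.00559%) than in all 3 AET libraries (at least 0.00579%), with an exact permutation p of 0.1, the smallest possible. In CPM these groups overlapped, with 9.16 in AET_MET replicate 3 against 9.14 in AET replicate 2. Of all genes tested, 27.9% did not overlap in CPM in this comparison. The part of reads divided with Myh4 and the other fast-type genes in these values of Myh8 was not tested.

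Several markers of regenerating or denervated fibers and of myoblasts, though not all, moved with Myh3 and Myh8 in SED replicate 2. The list of 11 holds both genes, and Myh3 made 33.0 and Myh8 24.4 CPM of its sum of 110 CPM there. It summed to 37.6 and 40.2 CPM in the other SED libraries, to 40.6 to 42.6 in AET and to 28.8 to 40.7 in AET_MET. Myog, a myogenic transcription factor, stood at 9.38 CPM in SED replicate 2 and at 1.27 to 2.93 CPM in the other 8. Chrng, the fetal acetylcholine receptor subunit, stood at 0.793 CPM there and at 0 in 3 libraries, and Mymk, a fusion protein of myoblasts, at 1.10 CPM there and at 0 in 4. Myod1, another myogenic factor on the list, was instead highest in AET_MET. The part of such fibers in the values of Myh3 and Myh8 was not tested.

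**Figure D5:**
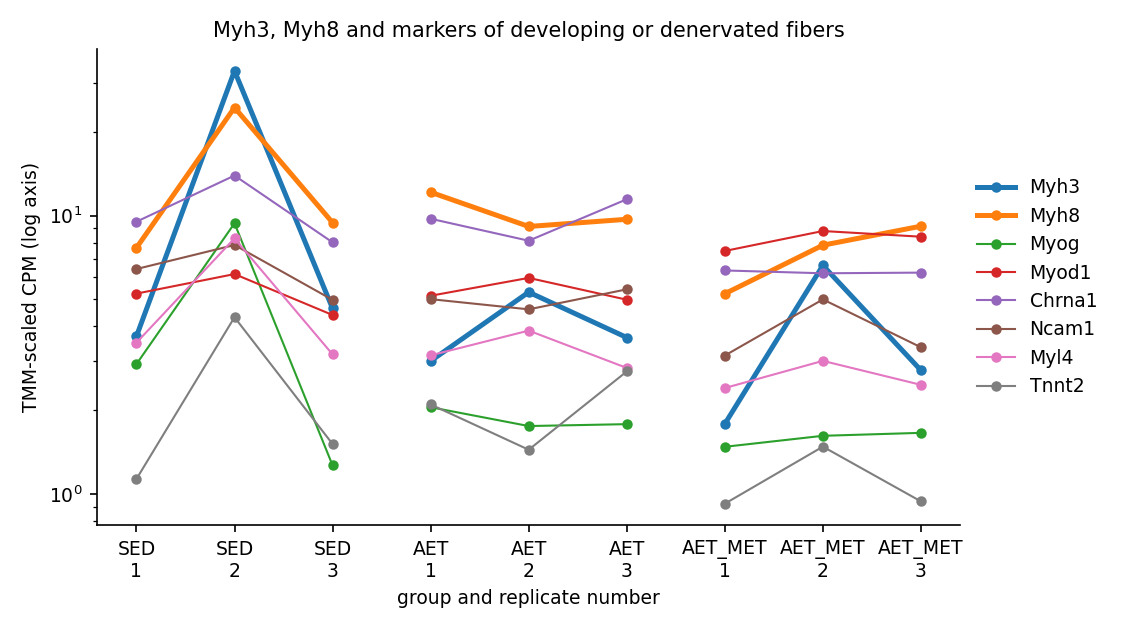
Level of Myh3 and Myh8 (thick lines) and of 6 markers of developing, denervated or regenerating fibers in each library, as TMM-scaled CPM on a log axis; lines join the libraries of a group and replicates have no order. Myh3, Myh8, Myog, Chrna1, Ncam1, Myl4 and Tnnt2 are highest in SED replicate 2, and Myod1 is highest in AET_MET.

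Myh6 and Myh7b were the lowest members and rested on few reads. Myh6, the heart's alpha chain, stood at 1.09, 2.07 and 4.15 CPM in SED, at 2.39, 2.26 and 4.10 CPM in AET and at 2.96, 1.94 and 1.21 CPM in AET_MET, from 23.4 to 101 expected counts a library. The groups overlapped, and Myh6 was not low in AET_MET replicate 1, where its near-identical neighbour Myh7 was at its lowest. The 10 heart markers summed to 65.0 to 158 CPM in SED, 19.5 to 31.9 in AET and 16.5 to 30.9 in AET_MET, most of it Actc1, the cardiac actin that developing skeletal muscle also expresses (9.44 to 152 CPM), while Myl7 and Nkx2-5 were at 0. Only 5 of the 10 were tested. In AET against SED 1 of them was called higher and 0 lower, beside 5.82% and 6.45% of all genes, and 2 estimates were above 0 and 3 below. None was called in the AET_MET comparisons. The log2 change of Myh6 was 0.27 ± 0.49 (adjusted p = 0.762) in AET against SED, -0.28 ± 0.51 (adjusted p = 0.811) in AET_MET against SED and -0.55 ± 0.50 (adjusted p = 0.573) in AET_MET against AET.

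Myh7b, the slow-tonic chain, stood at 1.56, 1.85 and 3.62 CPM in SED, at 2.29, 1.60 and 3.77 CPM in AET and at 1.42, 2.18 and 0.628 CPM in AET_MET, from 14 to 93 expected counts. The groups overlapped, with the lowest value in AET_MET replicate 3, which was also the lowest library of Myh1 and Myh2. Its log2 change was 0.13 ± 0.47 (adjusted p = 0.882) in AET against SED, -0.73 ± 0.51 (adjusted p = 0.465) in AET_MET against SED and -0.86 ± 0.50 (adjusted p = 0.354) in AET_MET against AET.

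Among the members, the log2 CPM of Myh2 went with those of Myh7b (Pearson r = 0.898, Spearman rho = 0.817) and Myh1 (r = 0.778, rho = 0.650) over the 9 libraries. The first r was 0.645 without the 2 libraries farthest from the median of Myh2, and the second 0.610 without the 2 farthest from that of Myh1. Between Myh4 and Myh1 the correlation was negative (r = -0.498, rho = -0.717), but r was only -0.263 without the 2 libraries farthest from the median of Myh4. Myh8 and Myh3 had r = 0.836 but rho = 0.283, and r = -0.515 without the 2 libraries farthest from the median of Myh8, so that their relation rested on those libraries. The genes most like Myh2 were Ckmt2, the mitochondrial creatine kinase of sarcomeric muscle (r = 0.972, rho = 0.950, and r = 0.903 without the 2 libraries farthest from the median of Myh2), Actn2, the alpha-actinin of the Z disc (r = 0.970, rho = 0.983, and 0.931), and Letm1, an inner mitochondrial membrane protein (r = 0.964, rho = 0.983, and 0.949). Those most like Myh4 were Scaper (r = 0.945, rho = 0.883), Ktn1 (r = 0.925, rho = 0.917) and Ncbp3 (r = 0.920, rho = 0.950). Without the 2 libraries farthest from the median of Myh4 their r were 0.955, 0.825 and 0.848. Those most like Myh1 were Vegfb (r = 0.926, rho = 0.833), Mtfp1 (r = 0.925, rho = 0.967) and Sart3 (r = 0.923, rho = 0.917), at 0.916, 0.904 and 0.880 without the 2 farthest from the median of Myh1. The genes most like Myh3, led by Agtrap (r = 0.960, rho = 0.783), fell to 0.652 or less without the 2 libraries farthest from the median of Myh3. The lists of Myh8, Myh6 and Myh7b were led by Fn1 (r = 0.929, rho = 0.817), Gramd1a (r = 0.942, rho = 0.933) and Taf4 (r = 0.977, rho = 0.917). All these correlations are over 9 libraries that share groups and processing, and are given as a description. The genes most like a member are the highest of 8434 or 8435 ranked, so a high r follows in part from the choice.

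The other genes of the fast and slow contractile programs gave few calls. Over all genes tested, 5.82% were called higher and 6.45% lower in AET against SED, 2.17% and 2.42% in AET_MET against SED, and 1.66% and 1.77% in AET_MET against AET. Of 14 fast-fiber genes outside the members, 1 fell in AET against SED, 0 changed in AET_MET against SED, and 1 rose in AET_MET against AET. The median log2 changes of this list were -0.13, -0.03 and 0.07, beside 0.01, 0.00 and 0.00 over all genes tested. Mylk2, the skeletal kinase that phosphorylates the fast regulatory light chain, was the gene called. It stood at 564, 554 and 564 CPM in SED, at 432, 330 and 408 CPM in AET and at 512, 547 and 746 CPM in AET_MET. It fell by 0.52 ± 0.14 on the log2 scale in AET against SED (adjusted p = 0.0297) and was higher by 0.63 ± 0.14 in AET_MET against AET (adjusted p = 0.0338). The first call was lost when any 1 of the SED or AET libraries was left out, with adjusted p up to 0.0907. The second was lost when any 1 of the SED or AET libraries or AET_MET replicate 2 or 3 was left out, with adjusted p up to 0.118, and when only the groups compared were fitted (adjusted p = 0.0744). The next gene by p was Atp2a1, the fast calcium pump, at -0.19 ± 0.09 (adjusted p = 0.170) in AET against SED and 0.20 ± 0.09 (adjusted p = 0.202) in AET_MET against AET; DESeq2 called the first (adjusted p = 0.0471). In AET_MET against SED the lowest p-values were those of Tnni2, at -0.16 ± 0.09 (adjusted p = 0.329), and Mylpf, at -0.13 ± 0.09 (adjusted p = 0.478).

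Of 12 slow-fiber genes, 0 rose and 0 fell in any of the 3 comparisons, with medians of -0.34, -1.11 and -0.69. Of these genes 9, 11 and 10 had estimates below 0, and since several varied together their signs are not independent. The lowest p-values were those of Atp2a2, the slow calcium pump (-0.83 ± 0.55, adjusted p = 0.380), and Myoz2, a Z-disc protein of slow fibers (-0.55 ± 0.39, adjusted p = 0.413), in AET against SED. In AET_MET against SED they were those of Myoz2 (-0.996 ± 0.40, adjusted p = 0.227; 0.0483 without AET_MET replicate 2) and Myl2, the slow regulatory light chain (-1.48 ± 0.64, adjusted p = 0.265). In AET_MET against AET they were those of Casq2, the slow calsequestrin (-0.65 ± 0.32, adjusted p = 0.303), and Myl2 (-1.20 ± 0.64, adjusted p = 0.341).

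Among 18 thick-filament partners and myosin chaperones, 1 rose and 0 fell in AET against SED and 0 changed in AET_MET against SED. Hsp90aa1, a chaperone of myosin folding, stood at 40.5, 51.7 and 40.4 CPM in SED, at 54.5, 68.3 and 52.4 in AET and at 42.1, 43.3 and 48.3 in AET_MET. It rose by 0.40 ± 0.12 on the log2 scale in AET against SED (adjusted p = 0.0498), a call lost under 12 of 18 alternatives, and its change in AET_MET against AET was -0.39 ± 0.12 (adjusted p = 0.0917). In AET_MET against SED the lowest p-values were those of Myom2, an M-band protein, at -0.25 ± 0.10 (adjusted p = 0.159), and Mybph, at -1.71 ± 0.70 (adjusted p = 0.236).

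Of 35 regulators of fiber type and of myosin genes, 3 were called higher and 2 lower in AET against SED, 2 higher and 0 lower in AET_MET against SED, and 1 higher and 1 lower in AET_MET against AET. Myf6, a myogenic transcription factor of adult fibers, stood at 90.8, 109 and 64.5 CPM in SED, at 39.3, 50.5 and 43.1 in AET and at 62.3, 66.5 and 66.5 in AET_MET. It fell by 0.99 ± 0.17 on the log2 scale in AET against SED (adjusted p = 0.00748; 0.0503 without AET replicate 1). Ppargc1a, the coactivator PGC-1 alpha of oxidative metabolism, rose by 0.58 ± 0.13 (adjusted p = 0.0126; 0.0534 without SED replicate 2 and 0.0561 without AET replicate 3). Nfatc2, a calcineurin-regulated transcription factor, rose by 0.61 ± 0.15 (adjusted p = 0.0220; up to 0.0930 without SED replicate 2 or 3 or AET replicate 1). Tead1, a TEAD factor that binds promoters of muscle genes, rose by 0.53 ± 0.14 (adjusted p = 0.0333; up to 0.123 without any SED library, AET replicate 1 or 3 or AET_MET replicate 1, and 0.0516 with no filter on low counts), and Hdac5, a repressor of MEF2 factors, fell by 0.33 ± 0.09 (adjusted p = 0.0329; up to 0.125 without SED replicate 1 or 3 or AET replicate 1 or 3, 0.0576 with upper-quartile scaling, 0.0694 with library sizes alone, 0.0523 with the replicate block and 0.0596 with only these groups fitted). Both were named after their values were seen.

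The regulators called in the AET_MET comparisons were Eya1, Myod1 and Vgll2. Eya1, a transcriptional cofactor of fast-fiber genes, stood at 19.6, 17.7 and 20.6 CPM in SED, at 24.2, 20.9 and 22.1 in AET and at 27.8, 26.8 and 25.5 in AET_MET. It rose by 0.47 ± 0.09 in AET_MET against SED (adjusted p = 0.0120; 0.0562 without SED replicate 2 and 0.0583 without AET_MET replicate 1). Myod1, the myogenic factor MyoD that is higher in fast muscle, stood at 5.25, 6.17 and 4.40 CPM in SED, at 5.15, 5.97 and 4.99 in AET and at 7.46, 8.80 and 8.39 in AET_MET. It rose by 0.64 ± 0.14 in AET_MET against SED (adjusted p = 0.0269; up to 0.119 without SED replicate 1 or 3 or any AET_MET library) and by 0.61 ± 0.14 in AET_MET against AET (adjusted p = 0.0370; up to 0.148 without SED replicate 1, AET replicate 1 or 3 or any AET_MET library). Vgll2, a cofactor of the TEAD factors, stood at 13.9, 16.0 and 17.2 CPM in AET and at 10.8, 9.08 and 6.64 in AET_MET and fell by 0.84 ± 0.18 (adjusted p = 0.0352; up to 0.126 without SED replicate 2, any AET library or AET_MET replicate 2 or 3, and 0.0752 with the replicate block). The median log2 changes of the 35 regulators were -0.02, 0.03 and 0.01.

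Of the other class II myosin heavy chains, which work outside the sarcomere or in other muscles, 5 of 6 were tested and Myh15 was too low. In AET against SED 1 rose, in AET_MET against SED none of the 5 passed, and in AET_MET against AET 2 fell. Myh9, a non-muscle heavy chain, stood at 71.9, 81.9 and 69.1 CPM in SED, at 115, 94.8 and 104 in AET and at 72.1, 74.5 and 67.4 in AET_MET. It rose by 0.49 ± 0.09 in AET against SED (adjusted p = 0.00453, and under 0.05 in all 18 alternatives) and fell by 0.55 ± 0.09 in AET_MET against AET (adjusted p = 0.0125; 0.0613 without AET replicate 3 and 0.0785 without AET_MET replicate 3). Myh10, also non-muscle, fell by 0.83 ± 0.17 in AET_MET against AET (adjusted p = 0.0344, lost under 7 of 18 alternatives) and stood at -0.61 ± 0.18 in AET_MET against SED (adjusted p = 0.0790; 0.0157 by DESeq2 and 0.0101 without AET_MET replicate 2). Myh11, the smooth muscle heavy chain, stood at 0.89 ± 0.26 in AET against SED (adjusted p = 0.0696; 0.0262 by DESeq2 and 0.0469 with at least 5 CPM in 3 libraries), and Myh14 at -0.25 ± 0.13 in AET_MET against SED (adjusted p = 0.296). The smooth muscle markers Myh11, Acta2, Tagln and Cnn1 summed to 110 to 151 CPM in SED, 201 to 339 in AET and 117 to 176 in AET_MET, and their part in the values of Myh9 and Myh10 was not tested.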

How the data were processed

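The authors deposited a gene table of RSEM expected counts, 1 column per library. Per the submitters' processing notes, STAR 2.5.3a, RSEM 1.3.0, edgeR 3.34.0 and GRCm38 were used, with no roles given; the annotation release, strand setting and filters were not given in the sources used here. Between 4.85% and 5.53% of values were not whole, and all were rounded. Symbols from GENCODE M21 matched 52083 of 55416 identifiers.

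One fit over all 9 libraries used TMM scaling, filterByExpr and edgeR 4.0.16 quasi-likelihood tests (R 4.3.3; 6 residual degrees of freedom before the prior), Benjamini-Hochberg adjusted over 13944 genes and called under 0.05; every adjusted p is from it unless another tool is named. CPM are TMM-scaled. Shares are counts divided by merged exon length, over the 8 members' sum. They were tested by exact permutation (numpy 2.4.6), two-sided for pairs of groups and on the between-group sum of squares for the 3 groups. Precision is limited by 3 libraries a group and totals of 15434424 to 25355877 counts. Alternatives were other scalings, filters, lengths, DESeq2 1.42.0, a replicate block, fits of only the groups compared and leaving out each library. Procedures were tested on simulated data. The members and lists were chosen with earlier results of these data known. Named genes are all members and, per list and comparison, the called genes with the 3 lowest p-values or, with fewer than 3 called, the 2 lowest p-values (Tead1 and Hdac5 were added after their values were seen); likeness names the 3 genes of highest Pearson r with mean CPM of at least 5. No label pairs the replicate numbers of different groups. Correlations of deviations from the group means ran from -0.0509 to 0.184 for same-numbered libraries and from -0.1725 to 0.1404 for the others. These overlapping ranges do not settle whether the numbers pair. Sequences come from the GENCODE M21 transcripts and genome (aligned with MAFFT 7.526) and RefSeq tables. Protein sequences were not used here, and the result of a gene of the thick-filament list is not reported here.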

Additional observations from a re-analysis of the deposited data

How the results depend on the processing

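No member changed from uncalled to called under any alternative except Myh2 in AET_MET against AET, by DESeq2 (adjusted p = 0.0450), counting only members with an adjusted p. The count of genes called in AET_MET against AET, 478 in the edgeR fit, was 767 with library sizes alone (611 higher, 156 lower; median of all genes 0.09), 731 with no filter on low counts and 888 by DESeq2; the cause was not tested. Leaving out 1 library at a time gave 934 to 1509 genes in AET against SED, 141 to 655 in AET_MET against SED, 23 to 461 in AET_MET against AET and 899 to 1478 for any difference among the 3 groups. The replicate block, a fit with the shared replicate number as a term, gave Myh2 -0.78 (adjusted p = 0.305) in AET_MET against SED and -0.94 (adjusted p = 0.225) in AET_MET against AET and ended the calls of Vgll2 (adjusted p = 0.0752) and Myh10 (adjusted p = 0.0720) in AET_MET against AET and of Hdac5 (adjusted p = 0.0523) in AET against SED. The mean share of Myh7 in SED was 0.349% from raw counts and 0.338% per longest transcript. As a percent of nuclear counts alone, total myosin heavy chain was 9.24% in SED, 9.71% in AET and 9.38% in AET_MET. Myh6 and Myh7b rested on 14 to 101 counts a library, which limits what could be detected.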
